A study of Homo sapiens with 6 samples.

Results

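Metallothioneins are small cysteine-rich proteins that bind zinc, copper and cadmium. MTF1 is the transcription factor that senses zinc and switches on metallothionein genes and SLC30A1, the exporter that carries zinc out across the plasma membrane. Members of the SLC39A family, among them SLC39A4 and SLC39A10, bring zinc into the cytosol. The 10 genes described here are 6 metallothionein genes (MT1E, MT1F, MT1G, MT1M, MT1X and MT2A), MTF1, SLC30A1, SLC39A4 and SLC39A10. They were taken by name, through their Ensembl gene IDs, from the 35716 genes of the deposited table. All 10 had a row, and 8 had enough counts to be tested.

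Messenger RNA, captured with oligo(dT) beads, was sequenced from MIA PaCa-2 cells, a human line grown from a pancreatic carcinoma, of the genotype given as WT. Triptolide at 10 nM for 24 h gave 3 libraries, and cells with the treatment given as none, grown 24 h in DMEM with fetal bovine serum, gave the other 3. The design text calls the triptolide libraries the control group, and they are named by their treatment here. Triptolide is a plant diterpenoid that inhibits TFIIH, and with it initiation by RNA polymerase II. Whether untreated cells received solvent is not stated. Nor is it stated that replicates were grown separately, so the p-values cover the spread among these libraries alone, and that spread may be technical.

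The libraries held 16302961 to 23262713 counts with triptolide and 17566458 to 19600354 without. Levels are given as CPM, the count divided by library size in megareads, with library sizes scaled by TMM. CPM gives a gene's share of a library's counts and not its RNA per cell. A change in RNA per cell shared by most genes would not show in these levels, folds or intervals. Of 10 markers of the pancreatic carcinoma line, 8 were tested, 1 rose and 2 fell, where 10.0% of all tested genes rose and 5.82% fell. Their summed level ran from 3299.7 to 4006.4 CPM with triptolide and from 4433.1 to 6575.1 CPM untreated, without overlap. KRT18, an epithelial keratin, fell 1.73-fold, VIM, the gene of vimentin, fell 1.66-fold, and S100P, a calcium-binding protein gene, rose 3.24-fold (edgeR adjusted p = 0.0123, 0.042 and 0.00155). The epithelial keratin gene KRT8 stood at 1587 ± 257 CPM with triptolide and 1894 ± 341 CPM untreated (SD, n = 3 libraries each), while EPCAM and CDH1, also genes of epithelial cells, had 3 and 16 counts with triptolide and 4 and 5 untreated. Of 44 trophoblast marker genes, 29 were tested, 26 rose and 0 fell. Some of those tested had no untreated count, so they passed the filter only through the triptolide libraries and could not have fallen. The markers' summed level ran from 624.8 to 1018 CPM with triptolide and from 31.5 to 37.5 CPM untreated, and 13 of them had no count in any untreated library. Of 14 blood and vascular markers, 6 were tested, 5 rose and 0 fell, with summed levels from 15.1 to 27.3 CPM with triptolide and from 3.21 to 4.54 CPM untreated. Of 27 fibroblast markers, 22 were tested, 13 fell and 2 rose, with sums from 1462 to 1821 CPM with triptolide and from 1465 to 1893 CPM untreated. Some blood and vascular markers likewise passed the filter only through the triptolide libraries, and some fibroblast markers only through the untreated ones. The lists were chosen with earlier results of these data known, so their counts are a description and not a test. Whether these marker counts came from the line itself or from other cells was not tested, nor was their part in the levels below. In bulk RNA, fewer cells of a type and less RNA per cell cannot be told apart.

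MT2A and MT1E supplied nearly all metallothionein counts, and their coding sequences are close copies. Their coding sequences in GENCODE 29, both on chromosome 16, are 186 bases long and encode 61 residues each, 20 of them cysteine. They are shown because the MT1E to MT2A ratio separated the groups in every library. Capitals mark the 14 bases at which they differ, which leaves 92.5% identity.
MT2A: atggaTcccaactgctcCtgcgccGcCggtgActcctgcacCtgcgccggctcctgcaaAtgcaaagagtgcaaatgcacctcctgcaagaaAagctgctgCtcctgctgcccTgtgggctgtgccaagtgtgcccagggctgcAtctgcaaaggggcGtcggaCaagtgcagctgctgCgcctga
MT1E: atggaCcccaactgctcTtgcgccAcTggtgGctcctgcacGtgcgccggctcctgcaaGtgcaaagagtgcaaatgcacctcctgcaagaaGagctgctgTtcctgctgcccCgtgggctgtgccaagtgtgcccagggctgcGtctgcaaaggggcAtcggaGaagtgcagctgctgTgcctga

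No stretch of the length of a read was identical between MT2A or MT1E and another gene. Only exact matches were counted, so the placement of reads with mismatches was not tested. Of windows of 150 bases, the stated read length, along the longest protein-coding transcript, 0 of 637 in MT2A and 0 of 580 in MT1E occurred in a transcript of another gene. The same count was 0 of 479 for MT1G, 0 of 541 for MT1F and 0 of 680 for MT1M. With windows of 75 bases, MT1G shared 5.23% with MT1E, MT1H and MT1M, and MT1E shared 1.68% with MT1G and MT1M. MT1X was the exception, with 44.5% of its 150-base windows inside AC026461.1, a noncoding gene that overlaps it on the same strand, so MT1X counts are uncertain. How reads that fit several genes were counted is not given in the sources used here.

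MTF1 binds metal response elements with the core TGCACNC or TGCGCNC. RefSeq promoters (GRCh38.p14) matched 5 of the 10 members, namely MT2A, MT1X, MTF1, SLC30A1 and SLC39A10. The 250 bases before the start of MT2A, MT1X and SLC30A1 are shown because these genes are known targets of MTF1, with every match on either strand in capitals.
MT2A, chr16:56608334-56608583, + strand: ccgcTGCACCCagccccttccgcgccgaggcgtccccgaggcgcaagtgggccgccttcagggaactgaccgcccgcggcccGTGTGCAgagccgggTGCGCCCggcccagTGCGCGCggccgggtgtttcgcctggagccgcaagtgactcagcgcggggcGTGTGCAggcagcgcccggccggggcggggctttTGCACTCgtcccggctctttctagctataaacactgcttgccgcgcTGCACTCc
MT1X, chr16:56682220-56682469, + strand: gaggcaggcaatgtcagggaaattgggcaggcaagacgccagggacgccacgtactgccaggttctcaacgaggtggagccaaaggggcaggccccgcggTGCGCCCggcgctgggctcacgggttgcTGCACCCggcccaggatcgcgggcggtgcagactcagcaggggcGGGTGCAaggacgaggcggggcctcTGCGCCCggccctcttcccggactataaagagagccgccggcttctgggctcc
SLC30A1, chr1:211579162-211579411, - strand: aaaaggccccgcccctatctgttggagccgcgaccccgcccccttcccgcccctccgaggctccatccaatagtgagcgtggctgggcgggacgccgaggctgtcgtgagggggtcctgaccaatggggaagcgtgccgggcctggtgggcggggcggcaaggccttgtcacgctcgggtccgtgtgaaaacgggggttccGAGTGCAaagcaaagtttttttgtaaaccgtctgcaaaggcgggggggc
MT2A held 7 matches, and 0.0313% of 35116 upstream windows of this length held at least 7. MT1X held 4, and 0.37% of windows held at least 4. SLC30A1 held 1, and 24.8% of windows held at least 1. MTF1 and both annotated starts of SLC39A10 had no match in this window. No matches overlapped within a window. A match describes these letters and is not evidence of binding.

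No member passed the test. At an adjusted p under 0.05 over all 15202 genes tested with edgeR's quasi-likelihood test, 0 of the 8 tested members rose and 0 fell, where 10.0% of all tested genes rose and 5.82% fell. At an unadjusted p under 0.05 there were 2, MT1E and MT1G, where 30.9% of all genes were under that value, and DESeq2 and limma-voom each called 0. The median log2 fold change of the 8 was 0.14, against -0.004 for all tested genes, with 5 above 0 and 3 below.

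**Figure D1:**
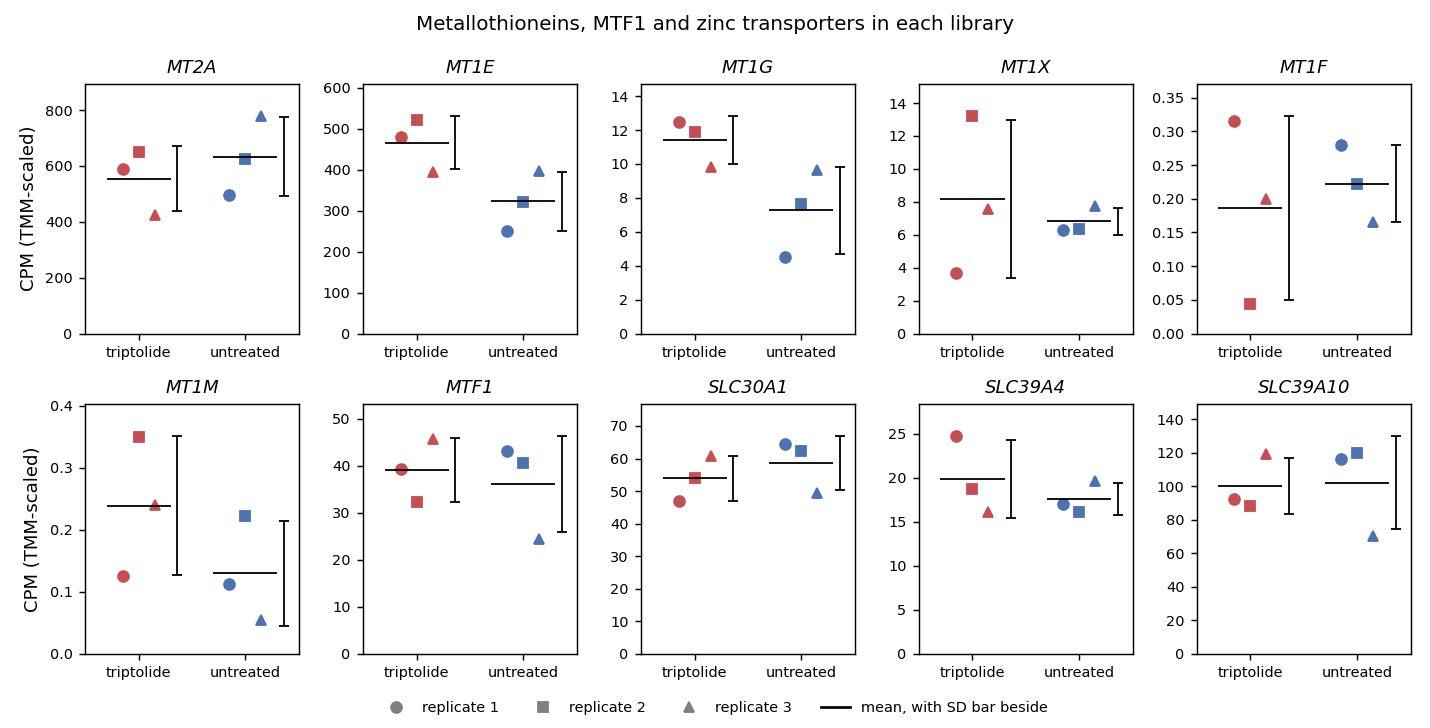
Level of each member in every library, in TMM-scaled CPM on a linear axis from 0 (each panel has its own scale). Triptolide libraries are red and untreated libraries blue, lines are means and bars SD over 3 libraries. The groups overlap in every panel but MT1G, where the 3 triptolide libraries lie above the 3 untreated ones.

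MT2A (ENSG00000125148), the most abundant metallothionein message here, stood at 591, 649 and 425 CPM in the triptolide libraries, against 498, 626 and 778 CPM in the untreated ones. The highest value was untreated and the lowest had triptolide, and the groups overlapped. The means were 555 ± 116 CPM with triptolide and 634 ± 140 CPM untreated, and the log2 fold change was -0.19 ± 0.21 (SE), with 0.572 as its edgeR adjusted p. Its 95% interval, from -0.65 to 0.26, spans a level from 0.639 to 1.2 times the untreated one.

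MT1E (ENSG00000169715) stood at 481, 522 and 395 CPM with triptolide, against 250, 322 and 396 CPM untreated. Only untreated replicate 3 reached the triptolide range, level with triptolide replicate 3. The means were 466 ± 64.7 CPM with triptolide and 323 ± 73 CPM untreated, and the log2 fold change was 0.53 ± 0.19 (SE), with 0.0842 as its edgeR adjusted p. The interval of the fold ran from 1.08 to 1.94. The call depended on the setting. Without untreated replicate 3 the log2 fold change was 0.69 and the adjusted p 0.0364, and it passed in 5 of 16 alternative settings, with adjusted p-values from 0.0273 to 0.302.

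MT1G (ENSG00000125144) stood at 12.5, 11.9 and 9.82 CPM with triptolide, against 4.54, 7.65 and 9.64 CPM untreated. This was the 1 tested member whose groups did not overlap, where 36.7% of all tested genes did not overlap and 19.8% lay wholly higher with triptolide. Even so, triptolide replicate 3 and untreated replicate 3 were close. The means were 11.4 ± 1.38 CPM with triptolide and 7.28 ± 2.57 CPM untreated, and the log2 fold change was 0.64 ± 0.25 (SE), with an edgeR adjusted p of 0.107. Without untreated replicate 3 it was 0.89 with an adjusted p of 0.0453, and without untreated replicate 1 it was 0.39 with an adjusted p of 0.345.

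MT1X (ENSG00000187193) had the widest spread of the tested members relative to its mean in the triptolide libraries, with 3.65, 13.2 and 7.59 CPM with triptolide, against 6.28, 6.37 and 7.77 CPM untreated. The lowest and the highest of the 6 libraries both had triptolide, with 58 and 302 counts. Its log2 fold change was 0.27 ± 0.35 (SE), with an edgeR adjusted p of 0.635, and it was -0.24 without triptolide replicate 2 and 0.62 without triptolide replicate 1.

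MT1F and MT1M were near the limit of detection and were not tested. MT1F (ENSG00000198417) had 5, 1 and 5 counts with triptolide and 5, 4 and 3 untreated. Its ratio, of counts summed over a group and divided by the summed library sizes, was 0.777, with a 95% exact interval from 0.311 to 1.92. MT1M (ENSG00000205364) had 2, 8 and 6 counts with triptolide and 2, 4 and 1 untreated. Its ratio, taken in the same way, was 1.94 with an interval from 0.754 to 5.57. These intervals cover counting error only, and a change within them was not detectable at this depth.

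The summed metallothionein level overlapped between the groups, while the shares of MT1E and MT2A did not. The 6 members summed to 1088, 1197 and 838 CPM with triptolide, against 759, 962 and 1192 CPM untreated, and the groups overlapped. The mean sum was 1041 ± 184 CPM with triptolide and 971 ± 217 CPM untreated, a ratio of 1.07. MT1E made up 44.2%, 43.6% and 47.2% of the sum with triptolide, against 32.9%, 33.5% and 33.2% untreated. MT2A made up 54.3%, 54.2% and 50.7% with triptolide, against 65.6%, 65% and 65.3% untreated. Every triptolide library had a larger MT1E share and a smaller MT2A share than every untreated library. MT1E and MT2A supplied nearly all of the sum, so their shares mirror each other. How often shares or ratios of other genes separate the groups was not tested, where 36.7% of single tested genes did not overlap.

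Counted against each other within a library, which needs no scaling, there were 0.815, 0.804 and 0.93 MT1E counts per MT2A count with triptolide, against 0.502, 0.514 and 0.509 untreated. The mean was 0.85 ± 0.0697 with triptolide and 0.509 ± 0.00598 untreated, 1.67 times as high with triptolide. The 95% exact counting intervals ran from 0.785 to 0.956 over the triptolide libraries and from 0.485 to 0.531 over the untreated ones. This pair was chosen after its values were seen and was given no p-value, and the ratio in triptolide cells could differ through either gene. Untreated replicate 3 was the highest untreated library in the CPM of both genes, and its ratio lay between those of the other untreated libraries.

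**Figure D2:**
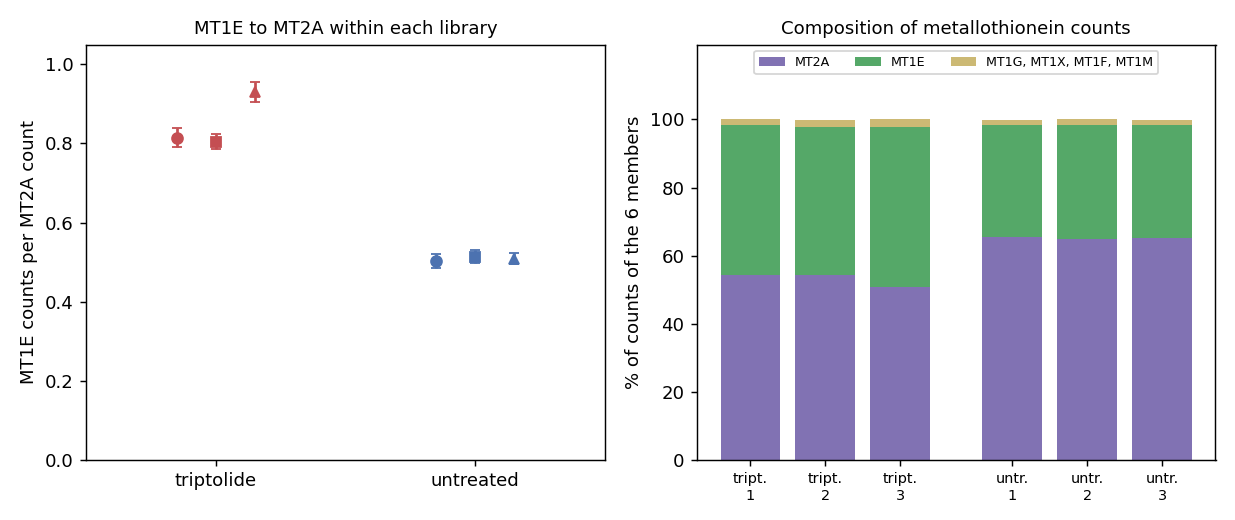
Left, MT1E counts per MT2A count in each library, with 95% exact counting intervals. Right, the percentage of the counts of the 6 metallothionein genes from MT2A, MT1E and the other 4 summed. The triptolide libraries lie between 0.804 and 0.93 and the untreated ones between 0.502 and 0.514.

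Set against MT2A in the same way, MT1G had 2.11, 1.83 and 2.31 counts per 100 MT2A counts with triptolide, against 0.913, 1.22 and 1.24 untreated, and these ranges did not overlap. MT1L, a pseudogene of the cluster, had 4.38, 3.85 and 4.66 with triptolide, against 3.22, 2.66 and 3.26 untreated, again without overlap. MT1A had 4.03, 2.95 and 3.34 with triptolide, against 3.16, 3.02 and 3.03 untreated, and MT1X had 0.619, 2.04 and 1.78 with triptolide, against 1.26, 1.02 and 0.998 untreated. The last 2 overlapped. All these ratios share MT2A as their denominator, so they are not independent of each other. Beside them, 36.7% of single tested genes did not overlap, and the share over ratios of gene pairs was not computed.

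Of the 14 other metallothionein genes and pseudogenes listed, 6 had a row and 2 were tested, with 0 risen and 0 fallen in edgeR, 0 at an unadjusted p under 0.05, and 0 called by DESeq2 or limma-voom. MT1L stood at 23.6 ± 3.28 CPM with triptolide and 19.3 ± 5.21 CPM untreated (edgeR adjusted p = 0.395), and MT1A, a coding member of the cluster, at 19 ± 4.79 CPM with triptolide and 19.4 ± 3.96 CPM untreated (edgeR adjusted p = 0.945).

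MTF1 (ENSG00000188786) stood at 39.2, 32.3 and 45.7 CPM with triptolide, against 43.1, 40.6 and 24.3 CPM untreated. The lowest value was untreated replicate 3, and the groups overlapped. The log2 fold change was 0.12 ± 0.23 (SE) with a 95% interval from -0.37 to 0.61 and an edgeR adjusted p of 0.765.

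SLC30A1 (ENSG00000170385), the zinc exporter of the plasma membrane, stood at 46.9, 53.9 and 60.8 CPM with triptolide, against 64.4, 62.2 and 49.3 CPM untreated. Its groups overlapped too. The log2 fold change was -0.12 ± 0.17 (SE) and its edgeR adjusted p 0.678. The 95% interval, from -0.50 to 0.26, spans a level from 0.706 to 1.2 times the untreated one.

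Among the importers, SLC39A10 (ENSG00000196950), which brings zinc in at the plasma membrane, stood at 92.5, 88.5 and 119 CPM with triptolide, against 116, 120 and 70.2 CPM untreated. Its log2 fold change was -0.03 ± 0.22 (SE), with an interval from -0.50 to 0.44 and an edgeR adjusted p of 0.946. SLC39A4 (ENSG00000147804), the intestinal zinc importer whose loss causes acrodermatitis enteropathica, stood at 24.7, 18.7 and 16.1 CPM with triptolide, against 17, 16.1 and 19.6 CPM untreated. Its log2 fold change was 0.17 ± 0.20 (SE), with an interval from -0.26 to 0.60 and an edgeR adjusted p of 0.594. Both genes overlapped between groups, and a smaller difference than these intervals allow was not detectable with 3 libraries a group.

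**Figure D3:**
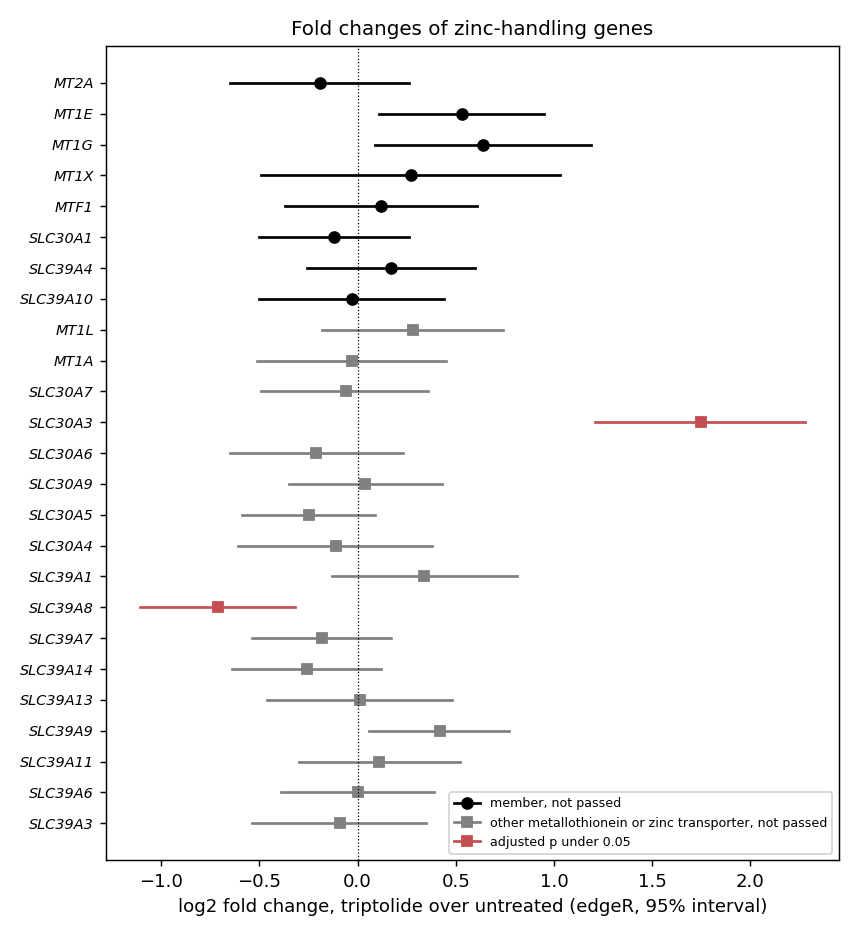
Log2 fold change, triptolide over untreated, with its 95% interval in edgeR for the 8 tested members (circles) and for 17 other tested metallothionein and zinc transporter genes (squares). Red marks the 2 genes past an adjusted p of 0.05, SLC30A3 at 1.75 and SLC39A8 at -0.71.

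Levels per kilobase of the longest protein-coding transcript in GENCODE 29 placed MT2A first, at 706 ± 148 CPM per kb with triptolide and 806 ± 179 untreated, and MT1E second, at 639.5 ± 88.7 with triptolide and 442.6 ± 100.2 untreated. With triptolide the mean levels per kb of MT2A and MT1E differed by less than either SD. That comparison leaves out that both genes were counted in the same libraries. In untreated cells the next were SLC39A10 at 18.8 ± 5.09, MT1X at 12.7 ± 1.55, MT1G at 11.6 ± 4.09 and SLC30A1 at 10.7 ± 1.49 CPM per kb. SLC39A10 lay above MT1X by more than either SD, while MT1X and MT1G, and MT1G and SLC30A1, differed by less than the SD of MT1G. SLC39A4 at 7.65 ± 0.789 and MTF1 at 4.52 ± 1.28 CPM per kb followed, and MT1F and MT1M were lowest, at 0.322 and 0.156.

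Short and long transcripts deviated in opposite directions in untreated replicate 3. In untreated replicate 3, tested genes with transcripts under 1000 bases lay at a median of 0.22 from their mean over the 6 libraries on the log2 scale, and those over 5000 bases lay at -0.23. In untreated replicates 1 and 2 the short genes lay at -0.14 and -0.12 and the long ones at 0.13 and 0.09. Over the triptolide libraries the short genes lay between -0.06 and 0.15 and the long ones between -0.06 and 0.13. In untreated replicate 3 the short MT2A, MT1E, MT1G and MT1X lay at 0.41, 0.05, 0.12 and 0.15. The long MTF1, SLC30A1 and SLC39A10 lay at -0.59, -0.18 and -0.50 there. In triptolide replicate 1 (short genes 0.09) MT2A, MT1E, MT1G and MT1X lay at 0.02, 0.33, 0.49 and -0.91. In triptolide replicate 2 (short genes 0.15) they lay at 0.15, 0.45, 0.41 and 0.91. In triptolide replicate 3 (short genes -0.06) they lay at -0.46, 0.05, 0.15 and 0.12. With a transcript length offset per library, added after the data were seen, MT1E passed with a log2 fold change of 0.50 (adjusted p = 0.0273), and the other 7 tested members did not pass. Triptolide replicate 1 differed in base composition, with genes above 60% GC at a median of 0.40 and genes under 40% GC at -0.49, and with a GC offset per library 0 of the 8 tested members passed. The part of length and base composition in each member's difference was otherwise not tested.

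**Figure D4:**
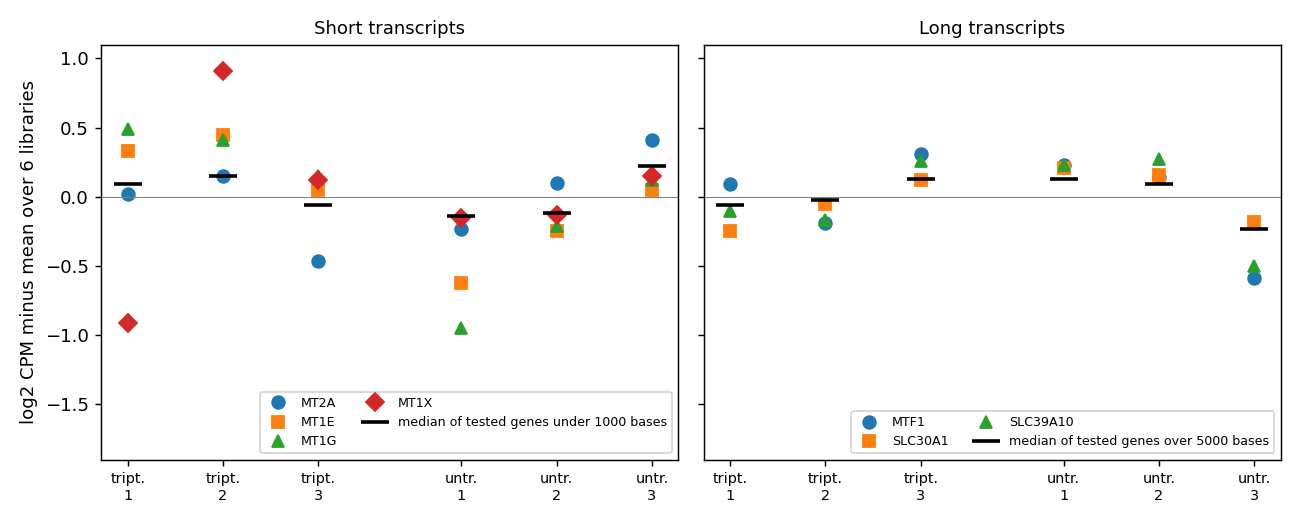
Log2 CPM of 7 members minus their mean over the 6 libraries, for short transcripts (left) and long ones (right), with black bars for the median of all tested genes of that length. In untreated replicate 3 the bar is at 0.22 for short and -0.23 for long transcripts.

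By the smallest root mean square difference in centred log2 CPM over the 6 libraries, among 10288 genes of at least 5 CPM, the genes most like MT2A were MRPS18A, at 0.0471, MOSPD3, EIF3FP3, NAXE and PTRH2, at 0.0797. Those most like SLC30A1 were ENTPD4, at 0.022, GEMIN5, CREB1, DIS3L and STAM, at 0.042. The 6 points are the same libraries for every gene, and the part of transcript length in these likenesses was not tested.

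Of the 15 other zinc transporters tested, 1 exporter rose and 1 importer fell, which is near the background, where 15.9% of all tested genes were called in either direction. Among 10 listed exporters and vesicle loaders, 9 had a row, 6 were tested, 1 rose and 0 fell, with a median log2 fold change of -0.09. SLC30A3, which loads zinc into synaptic vesicles in neurons, stood at 12.8, 8.53 and 7.95 CPM with triptolide, against 3.25, 2.38 and 3.03 CPM untreated, with no overlap. It rose 3.35-fold, or 1.75 ± 0.25 (SE) in log2, at an edgeR adjusted p of 0.000757, and passed in all 16 alternative settings. SLC30A2, which was not tested and was picked out after its values were seen, had 19 counts with triptolide and 0 untreated, at least 5.37-fold higher when the untreated group is set to a floor of 3 counts in all.

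Among 12 other listed importers, 9 were tested, 1 fell and 0 rose, with a median log2 fold change of 0.00. SLC39A8, an importer of zinc and manganese, stood at 20, 28 and 29 CPM with triptolide, against 41, 44.2 and 41.2 CPM untreated, with no overlap. It fell 1.64-fold, with a log2 fold change of -0.71 ± 0.18 (SE) and an edgeR adjusted p of 0.0198. The call was lost without untreated replicate 1 (adjusted p = 0.0508), without untreated replicate 2 (0.0847), with library totals alone (0.0511), among genes of at least 5 CPM (0.0544) and with ribosomal protein scaling (0.341). SLC39A14, the most abundant of these importers, stood at 205 ± 19.5 CPM with triptolide and 245 ± 43.3 CPM untreated (adjusted p = 0.344), and was named for its level after the values were seen.

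Copper and iron genes were listed for comparison. Of 16 tested copper genes, 1 fell and 0 rose, where 5.82% of all tested genes fell and 10.0% rose, with a median log2 fold change of -0.09. CUTC, a copper-binding protein gene, fell 2.65-fold to 9.64 ± 1.2 CPM with triptolide, against 25.5 ± 4.55 CPM untreated (edgeR adjusted p = 0.000635), and passed in all 16 alternatives. Of 17 tested iron genes, 1 rose and 2 fell, beside the same shares. TF, the gene of transferrin, rose 6.72-fold to 1.78 ± 0.27 CPM with triptolide, against 0.259 ± 0.0842 CPM untreated (edgeR adjusted p = 0.000505). SLC11A2, the importer of ferrous iron, fell 1.49-fold to 16.1 ± 1.35 CPM with triptolide, against 24 ± 3.66 CPM untreated (adjusted p = 0.0474), and passed in 5 of 16 alternatives.

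Genes that metals or glucocorticoids induce, as they induce metallothioneins, were listed beside the members. The glucocorticoid list also held the receptor gene NR3C1, which was not listed as an induced gene. Of 12 tested metal stress genes, 4 rose and 1 fell, where 10.0% of all tested genes rose and 5.82% fell, with a median log2 fold change of 0.21. HSPA1A and HSPA6, inducible heat shock genes, rose 2.62-fold and 5.04-fold, ATF3, a stress transcription factor gene, rose 3.01-fold, and GCLM, a subunit of the glutathione synthesis enzyme, fell 1.71-fold (edgeR adjusted p = 0.000348, 0.000426, 0.000453 and 0.0174). HSPA1B was the other risen gene (edgeR adjusted p = 0.0227). HSPA1A and HSPA1B are near-identical copies, so reads may be split between them, and their rises may not be separate. The 7 genes that did not pass had log2 fold changes from -0.37 to 0.96. Without untreated replicate 2 no metal stress gene was called fallen, and the same held with ribosomal protein scaling. Of 8 tested genes of the glucocorticoid list, 3 rose and 1 fell, beside the same 10.0% and 5.82%, with a median log2 fold change of 0.14. CRISPLD2 rose 1.76-fold, TSC22D3 1.91-fold and PER1 1.54-fold, and NR3C1, the gene of the glucocorticoid receptor, fell 1.83-fold (adjusted p = 0.00722, 0.0167, 0.0293 and 0.015). Without untreated replicate 1 or untreated replicate 2, 1 of these rose and 0 fell, and the same held with ribosomal protein scaling.

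**Figure D5:**
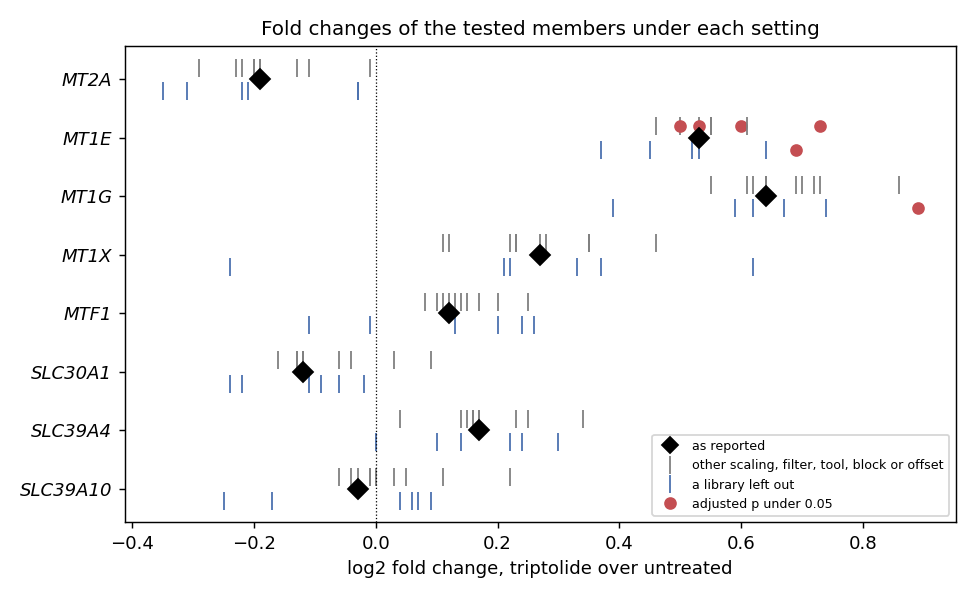
Log2 fold change, triptolide over untreated, of the 8 tested members as reported (diamonds), under 10 other scalings, filters, tools, blocks or offsets (grey ticks) and with each of 6 libraries left out (blue ticks). Red dots mark an adjusted p under 0.05, reached by MT1E in 5 settings and MT1G in 1.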

How the data were processed

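Poly(A)-selected libraries of MIA PaCa-2 cells were sequenced as paired reads of 150 bases, per the labels' protocols. The deposited table holds raw counts per Ensembl gene, with 1 column for each library. Per the submitters' processing notes, HISAT2 and featureCounts were used. Not given in the sources used here are their versions, build, annotation, strand setting and treatment of multi-mapping reads. Names were matched by ID for 35639 of 35716 genes.

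Genes were kept by filterByExpr (15202), given TMM factors, and compared by the quasi-likelihood test of edgeR 4.0.16 in R 4.3.3, group as the only term, with Benjamini-Hochberg adjustment over all genes tested. Standard errors come from the fold change and its F statistic. The alternatives were RLE factors, library totals, scaling on 84 ribosomal protein genes, no filter, genes averaging 5 CPM or more, limma-voom (limma 3.58.1), DESeq2 1.42.0, a replicate block, GC and length offsets and each library left out. Gene lists were described by counts, with no set test. Named genes were all members, up to 3 per direction with the smallest adjusted p from each metal, stress or hormone list (the 2 most abundant where none passed), and the 5 most like MT2A and SLC30A1 in pattern. The same rule also took genes from the cell type marker lists. Those of the carcinoma line list are named here, and the other marker lists are given by counts. KRT8, EPCAM, CDH1 and HSPA1B were named outside this rule. A gene that the rule named from the iron list is not reported here. The members and lists were chosen with earlier results of these data known. Chi-square over degrees of freedom was 4.96 or more for every pair of libraries, so none was a copy of another. The lowest value was that of untreated replicates 1 and 2, and every other pair had 25.6 or more. Figures were drawn with matplotlib 3.10.9.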

Additional observations from a re-analysis of the deposited data

How the results depend on the processing

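The number of members risen, 0 as reported, was 1 (MT1E) with library totals, ribosomal protein scaling, no low-count filter and the length offset added after the data were seen, and ran from 0 to 2 with a library left out. It was 2, MT1E and MT1G, without untreated replicate 3. In all 16 settings 0 members fell. MT2A stayed below 0 (log2 fold change from -0.35 to -0.01) and MT1E and MT1G above 0 in every setting. Of the uncalled members, the sign changed for MT1X without triptolide replicate 2 (range with a library left out -0.24 to 0.62), for MTF1 without triptolide replicate 3 (-0.01) or untreated replicate 3 (range -0.11 to 0.26), and for SLC30A1 with ribosomal protein scaling (0.03) and the GC offset (0.09). SLC39A10 turned positive with library totals (0.03), ribosomal protein scaling (0.11), genes of at least 5 CPM (0.05), limma-voom (0.00) and the GC offset (0.22). It also did so without triptolide replicates 1 or 2 (0.04 and 0.06) or untreated replicates 1 or 2 (0.07 and 0.09). With a library left out, SLC39A10 ranged from -0.25 to 0.09. MT1A, a metallothionein gene outside the members, turned positive with library totals (0.03), ribosomal protein scaling (0.15) and genes of at least 5 CPM (0.05). The same held without triptolide replicate 3 (0.15) or untreated replicate 3 (0.12), with a range from -0.20 to 0.15. The cause was not tested. The summed metallothionein ratio, 1.07, was 1.12 with library totals and 1.07 over all 12 metallothionein genes in the table, and ran from 0.967 to 1.21 with a library left out.

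Over all genes 1527 rose and 884 fell. Among genes of at least 5 CPM, which tests fewer genes, 584 rose and 336 fell. Ribosomal protein scaling gave 128 fallen and put the median over all genes at 0.168 in log2, against -0.004 as reported, and the GC offset gave 1901 fallen. With a library left out 953 to 1580 rose and 407 to 1034 fell. Of all calls 63.3% were higher as reported, 73.8% with library totals, 90.2% with ribosomal protein scaling, 53.1% with DESeq2 and 52.2% with the GC offset.

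Deviations of same-numbered libraries correlated at 0.03, -0.04 and -0.44, and not every library correlated best with its own number. With deviations centred over 3 libraries a group, these correlations cannot show whether same-numbered libraries shared a culture. The fit with a replicate block called 2379 genes in place of 2411 and no member (0). Depth limits MT1F and MT1M, with 11 and 16 counts with triptolide and 12 and 7 untreated.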
